A study of Mus musculus with 13 samples.

Results

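The genes described here are 10 components and early targets of transforming growth factor beta (TGF-beta) and bone morphogenetic protein (BMP) signalling in mouse haematopoietic stem cells (HSCs). They are the ligand gene Tgfb1, the receptor genes Tgfbr1 and Tgfbr2, the SMAD genes Smad1, Smad3, Smad4 and Smad7, and the inhibitor-of-differentiation genes Id1, Id2 and Id3. They were chosen by name, with earlier results of these data known, and all 10 were found by Ensembl identifier among the 13201 genes of the deposited table. Each reached a normalized count of 10 in 3 or more libraries, the filter on low values, as did 12846 genes in all. Id3 reached that level in 9 of the 13 libraries, Smad7 in 10 and Id1 in 12, and the other 7 members in every library.

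TGF-beta is a secreted dimer that binds the type II receptor TGFBR2, which then activates the type I receptor TGFBR1 and, through it, SMAD3. SMAD1 serves the related BMP receptors in the same way, SMAD4 is the partner shared by both branches, and SMAD7 is an inhibitor that is itself switched on by the pathway. The ID proteins bind E proteins, a class of helix-loop-helix transcription factors, and keep them from DNA, and Id1 to Id3 are textbook early targets of BMP-activated SMADs. In bone marrow, TGF-beta is known for holding HSCs out of the cell cycle, and megakaryocytes are one of its known sources.

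The study compared 4 groups of mice, each library holding polyadenylated RNA from 100 HSCs sorted from bone marrow. After 5-fluorouracil (5-FU), a drug that kills dividing cells, there were 3 MEK1-deficient (KO) libraries (A5, A6 and A8) and 4 wild-type (WT) libraries (A2, A3, A4 and D4). Without treatment there were 3 KO libraries (D4, D5 and D6) and 3 WT libraries (D1, D2 and D3). MEK1, encoded by Map2k1, is a kinase that activates ERK. The sources used here do not give the way the gene was inactivated, the dose and timing of 5-FU, or the age and strain of the mice. They also do not say that each library came from its own animal, so the spread behind the p-values may be technical.

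Read totals per library were 11416753 to 25380570 in 12 libraries and 45384866 in untreated WT D1, which the labels place on 2 flowcells, and 3 reads corresponded to a normalized count of 0.979 to 4.35. Map2k1 was at 304 to 459.9 normalized counts in KO against 584 to 1634 in WT libraries after 5-FU, and at 545 to 749.8 in KO against 905 to 1766 in WT libraries without treatment, with every KO library below every WT library. Among 5-FU WT libraries, A3 and D4 correlated over all tested genes with r = 0.988, against 0.912 to 0.977 for every other pair within a group, although their labelled acquisition dates differ. Per gene, the chi-square of their reads had a median of 4.32, against 9.81 to 63.8 for the other pairs. Summed over genes and divided by its degrees of freedom, it was 38.0 and did not set the pair apart. That value was 27.5 for A5 and A6 and 35.7 for A6 and A8 of 5-FU KO, and 47.8 to 168 for the remaining pairs. The series' design counts a technical sample in the untreated WT group only, and whether A3 and D4 hold RNA of the same cells cannot be told from the labels. If they do, 5-FU WT has 3 independent libraries, not 4. They were kept separate as labelled, and with the pair averaged 3 calls of members below end: Id2 between KO and WT after 5-FU, the Id1 interaction, and Tgfb1 in KO after 5-FU. Calls among the other pathway genes described below also fell, from 7 to 5 between KO and WT after 5-FU and from 4 to 0 in WT after 5-FU. Apart from 5-FU WT D4, all 5-FU libraries have one acquisition date and all untreated ones another, so for most libraries date and treatment cannot be told apart. All 11 HSC markers searched were found, with summed normalized counts of 10060 to 10803 in 5-FU KO, 15857 to 20270 in 5-FU WT, 21211 to 23829 in untreated KO and 23048 to 28286 in untreated WT libraries. In such bulk libraries, fewer cells of a type and less RNA per cell cannot be told apart.

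Tgfb1 and Id2, both called in at least 1 comparison below, had a promoter entry with bases outside annotated exons, and these bases are shown with the motif found in each in capitals. The sequences come from the RefSeq promoter table on GRCm38.p6. The Tgfb1 stretch, chr7:25686752-25687001 on the plus strand, is the 250 bases before the RefSeq start, and its capitals mark the Egr1 motif GCGNGGGCG read on the opposite strand, 122 bases upstream. The Id2 stretch, chr12:25096254-25096342 on the minus strand, is the outer 89 bases of the same window, and its capitals mark the GC-rich SMAD motif GGCGCC, 231 bases before the RefSeq start. It lies inside the longer span that GENCODE gives Id2, between exons, and so is intronic in that annotation.
Tgfb1: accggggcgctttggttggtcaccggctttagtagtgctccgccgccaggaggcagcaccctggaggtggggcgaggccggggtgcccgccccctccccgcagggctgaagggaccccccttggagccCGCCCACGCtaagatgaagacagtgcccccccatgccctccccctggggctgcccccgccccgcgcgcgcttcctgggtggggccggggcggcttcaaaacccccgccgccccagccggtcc
Id2: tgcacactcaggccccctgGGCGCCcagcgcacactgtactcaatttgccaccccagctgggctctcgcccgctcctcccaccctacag
Over both strands of the 250 bases before the start, GCGNGGGCG was present in 4.70% of 32851 promoters of all genes and GGCGCC in 9.59%. Promoter entries were matched for 7 of the 10 members, all but Id1, Smad4 and Smad7. Tgfbr1 held both of these motifs and also the CAGA box CAGACA, which 17.1% of all promoters held. The palindromic SMAD motif GTCTAGAC, held by 0.167% of all promoters, and the AP-1 motif TGANTCA, held by 6.75%, were found in none of the 7 windows. These matches describe letters in the windows, not binding.

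**Figure D1:**
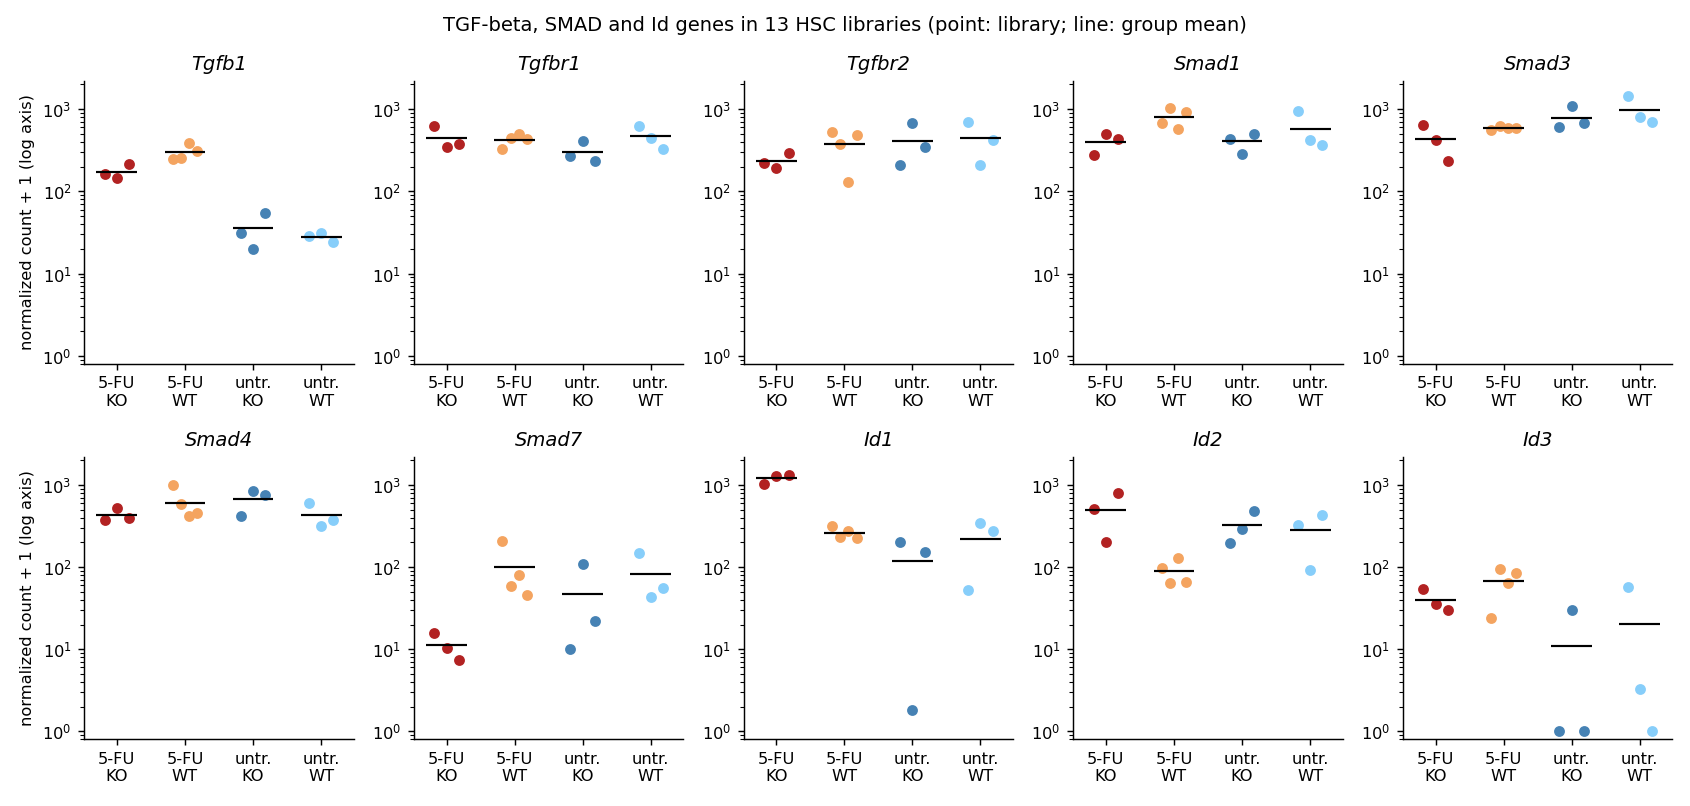
Normalized counts plus 1 (log axis) of the 10 members in each of the 13 libraries, one panel per gene, with groups on the horizontal axis and a line at each group mean. Tgfb1 is higher in every 5-FU library than in any untreated one, and Id1 in the 3 KO libraries after 5-FU, at 1025 to 1326, lies above all other libraries.

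Tgfb1, on chromosome 7 (ENSMUSG00000002603, chr7:25687002-25705077, plus strand), was the member whose level followed treatment in both genotypes. In WT cells it was at 249.95, 256, 385 and 309 normalized counts in A2, A3, A4 and D4 after 5-FU, against 27.4, 30.1 and 23.2 in untreated D1, D2 and D3. The groups did not overlap, and the lowest treated library lay far above the highest untreated one. Tgfb1 rose 11.1-fold in mean after 5-FU in WT cells, to 300.1 ± 62.5 (SD, n = 4) against 26.9 ± 3.46 without treatment (SD, n = 3). On the deposited log2 scale, which understates changes of low genes, the difference was 1.13 ± 0.18 (SE, 95% interval 0.75 to 1.51, limma, Benjamini-Hochberg adjusted p = 0.00106). With the acquisition date as a term the difference was 1.16 and the adjusted p 0.0562.

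In KO cells Tgfb1 was at 163, 143 and 213 normalized counts in A5, A6 and A8 after 5-FU, against 30.4, 18.8 and 53.9 in untreated D4, D5 and D6. Again every treated library was above every untreated one, with untreated KO D6 the highest of the untreated libraries. Tgfb1 rose 5.03-fold in mean, to 173 ± 36.4 after 5-FU against 34.4 ± 17.9 without treatment (SD, n = 3 each), a log2 difference of 0.71 ± 0.19 (SE, limma adjusted p = 0.0396). That call was close to the threshold: with the A3 and D4 pair averaged the adjusted p was 0.0510, and it ranged over 0.0342 to 0.135 when single libraries were left out, with 8 of the 13 omissions ending the call. The omissions that ended it were those of A5, A6 and A8 of 5-FU KO, A3 and D4 of 5-FU WT, and D4, D5 and D6 of untreated KO. With the date term the adjusted p was 0.603, and limma-voom, or keeping libraries of 1 flowcell (adjusted p = 0.0532), also ended the call.

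Between genotypes after 5-FU, all 3 KO libraries, at 143 to 213 normalized counts of Tgfb1, lay below all 4 WT libraries, at 249.95 to 385. The mean was 1.74-fold lower in KO, and the log2 difference of -0.37 (95% interval -0.75 to 0.01) did not pass the test (limma adjusted p = 0.215). The difference between the responses of KO and WT to 5-FU, tested as an interaction, was -0.42 on the log2 scale (95% interval -0.98 to 0.13) and did not pass either (adjusted p = 0.450). Tgfb1 thus passed in both genotypes, and a difference in size between KO and WT was not shown.

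Markers of other blood cells differed between these groups in some lists and not in others. The summed normalized count of 9 megakaryocyte and platelet markers was 4620 to 7366 in 5-FU KO libraries, 30371 to 54073 in 5-FU WT, 4053 to 7466 in untreated KO and 3750 to 5461 in untreated WT. The 9 erythroid markers summed to 5286 to 5614, 10397 to 13441, 2112 to 4118 and 2886 to 3846 in the same order of groups, with Car1 at 0 in every 5-FU KO and every untreated KO library. Of the megakaryocyte markers, 7 of 9 were called higher in WT after 5-FU, against 3.72% of all genes. The median log2 difference over the 9 was 1.71 in WT after 5-FU and -0.26 in KO after 5-FU. Of the erythroid markers, 4 of 9 were called higher in WT after 5-FU, against 3.72% of all genes, and 1 of 9 in KO, against 2.78%. Between KO and WT after 5-FU, 7 megakaryocyte and 5 erythroid markers were called lower in KO, against 5.50% of all genes. The 7 neutrophil and myeloid progenitor markers found summed to 2249 to 2390 in 5-FU KO, 4006 to 5887 in 5-FU WT, 4571 to 4956 in untreated KO and 4506 to 5255 in untreated WT libraries. Of these, 4 were called lower in KO than in WT after 5-FU, against 5.50% of all genes. Mpo and Lcn2 were at 0 in every 5-FU KO library, and Elane and Lcn2 in every untreated WT library. The 2 mast cell and basophil markers found summed to 249.98 to 666 in 5-FU KO, 1875 to 2257 in 5-FU WT, 289.8 to 335 in untreated KO and 172 to 1299 in untreated WT libraries. The 5 monocyte and macrophage markers found summed to 350 to 636 in 5-FU KO and 49.2 to 600 in 5-FU WT libraries. Without treatment they summed to 239 to 487 in KO and 744 to 1274 in WT libraries. The 4 B and T cell markers found summed to 623 to 955 in 5-FU KO and 1171 to 2127 in 5-FU WT libraries. Without treatment these were at 1200 to 1634 in KO and 888 to 2326 in WT libraries. The 3 stroma and endothelium markers found summed to 96.7 to 468 in 5-FU KO and 231 to 423 in 5-FU WT libraries. Without treatment they summed to 52.9 to 341 in KO and 69.4 to 243 in WT libraries. Of the 11 HSC markers, 5 were called lower and 1 higher in WT after 5-FU, where 6.68% of all genes were called. In KO after 5-FU 4 were called lower and 0 higher, where 5.92% of all genes were called. The part of any of these cells in the Tgfb1 values was not tested.

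**Figure D2:**
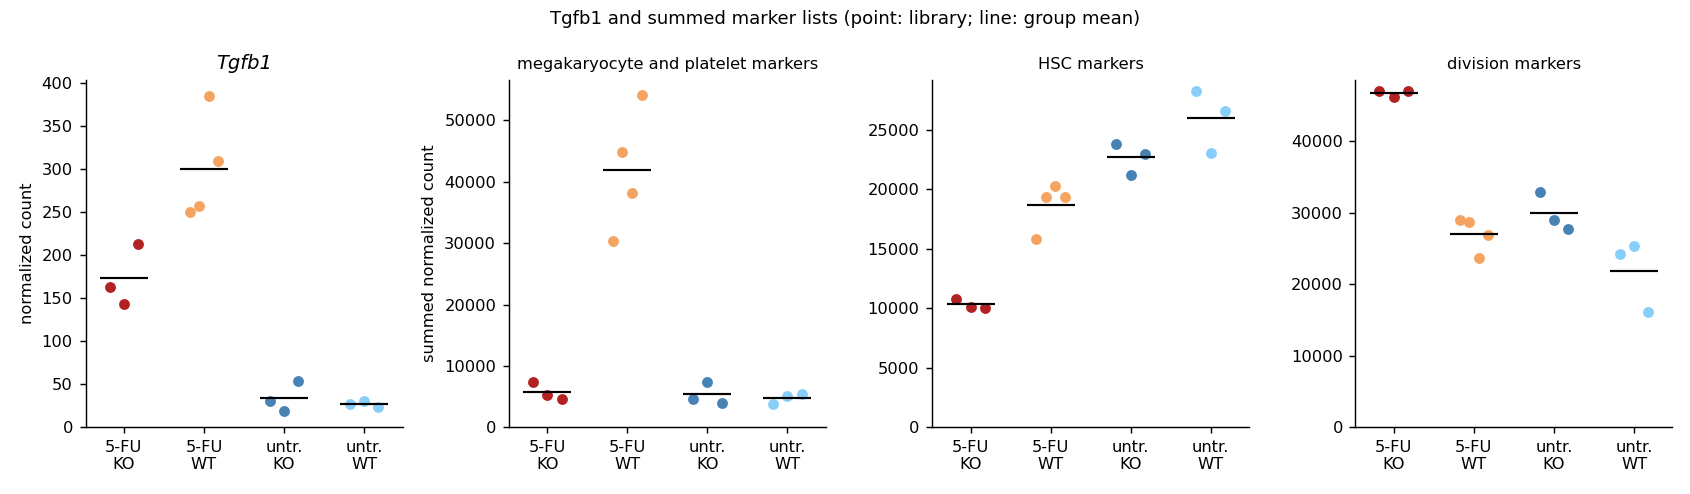
Normalized count of Tgfb1 and summed normalized counts of the megakaryocyte and platelet, HSC and division gene lists (vertical axes from 0) by group, one point per library with a line at each group mean. The 5-FU KO libraries have Tgfb1 at 143 to 213 and megakaryocyte marker sums of 4620 to 7366, against 249.95 to 385 and 30371 to 54073 in 5-FU WT libraries.

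Id1 (ENSMUSG00000042745, chr2:152736251-152737410, plus strand) had the largest log2 differences on the deposited scale among the members in KO against WT after 5-FU and in KO after 5-FU. After 5-FU it was at 1025, 1271 and 1326 normalized counts in KO A5, A6 and A8, against 311, 230.3, 274 and 226 in the WT libraries A2, A3, A4 and D4. No KO library overlapped a WT library, and the spread within each genotype was small. Id1 was 4.63-fold higher in KO, with means of 1207 ± 160.0 in KO (SD, n = 3) and 260.5 ± 40.1 in WT (SD, n = 4). The log2 difference was 1.41 ± 0.30 (SE, 95% interval 0.79 to 2.04, limma adjusted p = 0.00524), and no single left-out library ended the call. It was lost when counts were put on a log2(normalized count + 1) or + 5 scale, where the difference itself was larger, 2.21 and 2.19, and with TMM scaling on the first of these scales (2.24).

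Without treatment Id1 varied widely. It was at 198, 0.818 and 150.2 normalized counts in KO D4, D5 and D6, where the value in D5 is 1 read, and at 51.6, 338 and 274 in WT D1, D2 and D3. The groups overlapped, and the log2 difference of -0.46 (95% interval -1.12 to 0.21) did not pass (limma adjusted p = 0.677). Treated and untreated KO libraries did not overlap, and Id1 rose 10.4-fold in mean after 5-FU in KO cells, by 2.07 ± 0.32 on the log2 scale (SE, limma adjusted p = 0.00133). Leaving out untreated KO D4 raised that ratio to 16.0-fold and leaving out D5, the library with 1 read, lowered it to 6.93-fold. With the date term the log2 difference was 1.94 and did not pass (adjusted p = 0.235). In WT cells the corresponding difference was 0.20 (95% interval -0.43 to 0.82, adjusted p = 0.741), with 5-FU WT libraries inside the range of untreated WT ones.

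The interaction of genotype and treatment for Id1 was 1.87 ± 0.43 on the log2 scale (SE, 95% interval 0.95 to 2.78, limma adjusted p = 0.0288), so the response to 5-FU was larger in KO than in WT cells by this test. The call rested on several libraries: leaving out any one of A5, A6 or A8 of 5-FU KO, A3 or D4 of 5-FU WT, D5 of untreated KO, or D2 or D3 of untreated WT ended it, with adjusted p of 0.0122 to 0.0839 over all 13 omissions. With the A3 and D4 pair averaged it was 0.0560 and with the date term 0.0620, and on the log2(normalized count + 1) and + 5 scales, with TMM scaling and with limma-voom the call was also lost.

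Id2 (ENSMUSG00000020644, chr12:25093799-25097140, minus strand) was also higher in KO after 5-FU. It was at 505, 200.5 and 793 normalized counts in KO A5, A6 and A8, against 96.0, 62.3, 127 and 65.1 in the WT libraries A2, A3, A4 and D4. All KO libraries were above all WT libraries, with KO A6 the nearest to them. The mean was 5.70-fold higher in KO, at 499.7 ± 297 (SD, n = 3) against 87.7 ± 30.6 in WT (SD, n = 4), a log2 difference of 1.08 ± 0.29 (SE, 95% interval 0.47 to 1.69, limma adjusted p = 0.0247). Leaving out A5 or A8 of KO, or A3 or D4 of WT, ended the call (adjusted p of 0.0121 to 0.145 over the omissions), and so did averaging the pair (0.0649), the date term (0.0664), 1 flowcell (0.0655) and limma-voom.

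In untreated cells Id2 was at 194, 292 and 477 normalized counts in KO D4, D5 and D6, and at 323, 90.3 and 425 in WT D1, D2 and D3, so the groups overlapped. The 5-FU WT libraries were lower than untreated WT D1 and D3 but not all below D2. The log2 difference was -0.61 in WT after 5-FU (95% interval -1.22 to -0.00, limma adjusted p = 0.223) and 0.32 in KO (95% interval -0.34 to 0.97, adjusted p = 0.625). The interaction was 0.93 (95% interval 0.03 to 1.83), with an adjusted p of 0.277.

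Id3 (ENSMUSG00000007872, chr4:136143497-136145755, plus strand) did not follow Id1 and Id2. After 5-FU it was at 53.7, 34.2 and 28.6 normalized counts in KO A5, A6 and A8, against 23.1, 92.7, 63.7 and 83.7 in the WT libraries A2, A3, A4 and D4. Untreated KO D4, D5 and D6 had 0, 29.4 and 0, and untreated WT D1, D2 and D3 had 55.5, 2.31 and 0. All 7 treated libraries had Id3 reads, whereas 3 of the 6 untreated ones had none. No comparison passed with all libraries: the log2 difference was 0.45 in WT after 5-FU (limma adjusted p = 0.175) and 0.38 in KO (adjusted p = 0.318). Without untreated WT D1, the WT comparison passed, with an adjusted p of 0.0494, and the untreated WT libraries that then remain, D2 and D3, had 2 and 0 reads of Id3.

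The summed level of the 3 Id genes in KO A5, A6 and A8 after 5-FU was 1584, 1506 and 2148 normalized counts, a mean of 1746 ± 350.2 (SD, n = 3). In 5-FU WT A2, A3, A4 and D4 it was 430.5, 385, 465 and 375, a mean of 414 ± 41.6 (SD, n = 4). It was 392, 322 and 627 in untreated KO D4, D5 and D6, and 429.6, 430.6 and 698 in untreated WT D1, D2 and D3. The 5-FU KO libraries stood above the other 10, whose sums lay between 322 and 698. The sum of untreated WT D1, where Id1 was low, was close to that of D2, with Id2 as its largest share. Id1 made up 61.7% to 84.4% of the sum in 5-FU KO, 58.9% to 72.3% in 5-FU WT, 0.254% to 50.5% in untreated KO and 12.0% to 78.5% in untreated WT libraries. Being built from members chosen by name, the sum is given without a test.

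**Figure D3:**
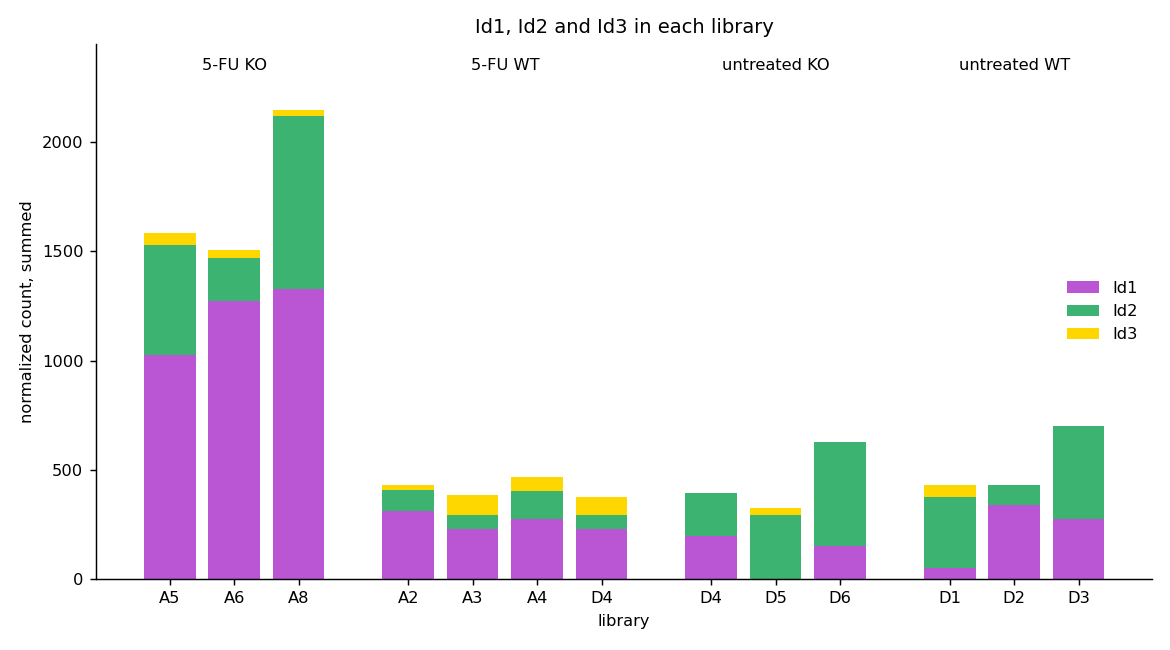
Summed normalized counts of Id1, Id2 and Id3 in each library, stacked by gene, with groups in the order 5-FU KO, 5-FU WT, untreated KO and untreated WT (bars start at 0). The 3 KO libraries after 5-FU reach 1506 to 2148, and the other 10 lie between 322 and 698.

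Division genes, like Id1 and Id2, were higher in KO than in WT after 5-FU. The summed normalized count of 8 division genes was 46106 to 47034 in 5-FU KO, 23718 to 28958 in 5-FU WT, 27786 to 32955 in untreated KO and 16119 to 25344 in untreated WT libraries. Of the 8, 5 were called higher in KO than in WT after 5-FU, against 5.36% of all genes. Without treatment the median log2 difference of KO from WT over the 8 division genes was 0.50, where Id1 was at -0.46 and Id2 at 0.15. In WT after 5-FU that median was 0.25, where Id1 was at 0.20 and Id2 at -0.61. None of these Id differences passed the test. In KO after 5-FU the division median was 0.89, with 4 of the 8 called higher, against 2.78% of all genes. There Id1 was at 2.07, which passed, and Id2 at 0.32, which did not. Between KO and WT after 5-FU, 4 of the 11 HSC markers were called lower in KO, against 5.50% of all genes, and 1 was called higher, against 5.36%. The part of either in the Id values was not tested.

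Smad7 (ENSMUSG00000025880, chr18:75367529-75395935, plus strand), the inhibitory SMAD, had its lowest group mean in KO cells after 5-FU. It was at 14.8, 9.43 and 6.50 normalized counts in KO A5, A6 and A8, which are 11, 8 and 5 reads, against 208, 57.9, 79.9 and 45.2 in the WT libraries A2, A3, A4 and D4. The groups did not overlap, and WT A2 stood well above the other WT libraries. The mean was 9.55-fold lower in KO, at 10.2 ± 4.20 (SD, n = 3) against 97.8 ± 75.0 in WT (SD, n = 4), or 5.96-fold lower without WT A2. The log2 difference of -0.60 (95% interval -1.07 to -0.14) did not pass the test over all genes (limma adjusted p = 0.0914).

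Untreated KO D4, D5 and D6 had Smad7 at 9.21, 109 and 21.2 normalized counts, and untreated WT D1, D2 and D3 had 146, 41.7 and 54.9. The groups overlapped through KO D5, the log2 difference was -0.26 (limma adjusted p = 0.771), and the mean was 1.74-fold lower in KO with all libraries, 5.32-fold lower without KO D5 and 1.04-fold lower without WT D1. After 5-FU the log2 difference from untreated cells was -0.27 in KO (adjusted p = 0.570) and 0.07 in WT (adjusted p = 0.881). Untreated KO D4 lay below 5-FU KO A5 and A6. In KO the mean was 4.53-fold lower after 5-FU with all libraries and 1.48-fold lower without untreated KO D5.

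Smad1 (ENSMUSG00000031681, chr8:79338395-79399518, minus strand), the BMP-branch SMAD, was at 274, 495 and 429 normalized counts in KO A5, A6 and A8 after 5-FU. In WT A2, A3, A4 and D4 it was at 675, 1026, 569 and 919, so that every KO library lay below every WT library. The mean was 1.99-fold lower in KO, and the log2 difference of -0.63 (95% interval -1.15 to -0.12) missed the threshold (limma adjusted p = 0.110). Without treatment Smad1 was at 434, 281 and 503.5 in KO D4, D5 and D6, against 945, 424 and 368 in WT D1, D2 and D3, with overlap and a log2 difference of -0.27 (adjusted p = 0.788). The response to 5-FU was -0.01 in KO (95% interval -0.56 to 0.54) and 0.35 in WT (95% interval -0.16 to 0.87) on the log2 scale, and neither passed (adjusted p = 0.985 and 0.425).

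Smad3 (ENSMUSG00000032402, chr9:63646767-63757994, minus strand), the TGF-beta-branch SMAD, had lower means in treated than in untreated cells of both genotypes without passing a test. After 5-FU it was at 638, 423 and 230.2 normalized counts in KO A5, A6 and A8, and at 561, 624, 589 and 587 in the WT libraries A2, A3, A4 and D4. Untreated KO D4, D5 and D6 had 599.7, 1098 and 673, and untreated WT D1, D2 and D3 had 1444, 799.8 and 689.7. All 4 treated WT libraries were below the 3 untreated ones, while KO A5 overlapped untreated KO D4. The log2 difference after 5-FU was -0.58 in KO (95% interval -1.12 to -0.05, limma adjusted p = 0.207) and -0.46 in WT (95% interval -0.97 to 0.04, adjusted p = 0.266). Between genotypes it was -0.33 after 5-FU (adjusted p = 0.437) and -0.21 without treatment (adjusted p = 0.848).

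Smad4 (ENSMUSG00000024515, chr18:73639009-73703780, minus strand), the shared partner, overlapped between groups in every comparison. It was at 378, 516.5 and 393 normalized counts in KO A5, A6 and A8 after 5-FU, against 992, 578, 415 and 448 in the WT libraries A2, A3, A4 and D4. It was at 419, 838 and 746 in untreated KO D4, D5 and D6, against 596, 312.5 and 369.7 in untreated WT D1, D2 and D3. The log2 difference of KO from WT was -0.28 after 5-FU (limma adjusted p = 0.529) and 0.40 without treatment (adjusted p = 0.642), and the interaction was -0.68 (95% interval -1.42 to 0.06, adjusted p = 0.346).

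The receptor genes showed no called difference. Tgfbr1 (ENSMUSG00000007613, chr4:47353222-47414931, plus strand) was at 622, 348 and 371 normalized counts in KO A5, A6 and A8 after 5-FU, and at 324, 439, 498 and 432 in the WT libraries A2, A3, A4 and D4. Untreated KO D4, D5 and D6 had 265, 410.4 and 230.6, and untreated WT D1, D2 and D3 had 626.5, 447 and 328.5. The groups overlapped in all of these pairs. The log2 difference of KO from WT was 0.03 after 5-FU (95% interval -0.42 to 0.48, limma adjusted p = 0.952) and -0.35 without treatment (95% interval -0.83 to 0.13, adjusted p = 0.654).

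Tgfbr2 (ENSMUSG00000032440, chr9:116084293-116175360, minus strand) was at 223, 191 and 294 normalized counts in KO A5, A6 and A8 after 5-FU, against 526.5, 381, 128 and 480.2 in the WT libraries A2, A3, A4 and D4. WT A4 lay below all KO libraries and the other 3 WT libraries above them. Untreated KO D4, D5 and D6 had 209, 670.4 and 345, and untreated WT D1, D2 and D3 had 698, 206 and 421.5. Between genotypes the log2 difference was -0.30 after 5-FU (95% interval -0.93 to 0.32, limma adjusted p = 0.583) and -0.06 without treatment (95% interval -0.73 to 0.60, adjusted p = 0.979).

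Counted over the members, 2 of 10 were called between KO and WT after 5-FU, both higher, where 10.9% of the 12846 genes tested were called (5.36% higher and 5.50% lower). With 10 genes, 2 calls are close to that background. Because the members were chosen with earlier results of these data known, their shares beside all genes are descriptive only. The groups did not overlap for 5 of 10 members in the same comparison, against 27.0% of all genes. Id1 and Id2 were higher in KO without overlap, a direction found for 13.2% of all genes, and Smad1, Smad7 and Tgfb1 were lower without overlap, against 13.8%. The median log2 difference of the 10 was -0.29, against -0.02 over all genes.

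Without treatment, limma called 0 of 10 members between KO and WT, against 0.0311% of all genes, limma-voom also called 0, and 0 had an unadjusted p below 0.05. Groups without overlap were found for 0 of 10 members, against 11.5% of all genes, and the median log2 difference was -0.15. With 3 libraries per genotype the intervals are wide, -1.12 to 0.21 for Id1. On simulated counts this comparison recovered 15% of 2-fold and 55% of 4-fold changes, with 4 false among 74 calls over 12846 genes.

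After 5-FU, 1 of 10 members was called in WT (Tgfb1, higher), against 6.68% of all genes in either direction and 3.72% higher. In KO 2 of 10 were called (Id1 and Tgfb1, both higher), against 5.92% in either direction and 2.78% higher. Without overlap were 2 of 10 in WT, against 16.7% of all genes, with Tgfb1 higher (8.80% of all genes) and Smad3 lower (7.92%). In KO there were also 2 of 10, against 28.8%, both higher (14.2%). The interaction called 1 of 10 (Id1, positive), against 2.84% of all genes and 1.04% in that direction. These comparisons share libraries, so their counts are not separate evidence.

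**Figure D4:**
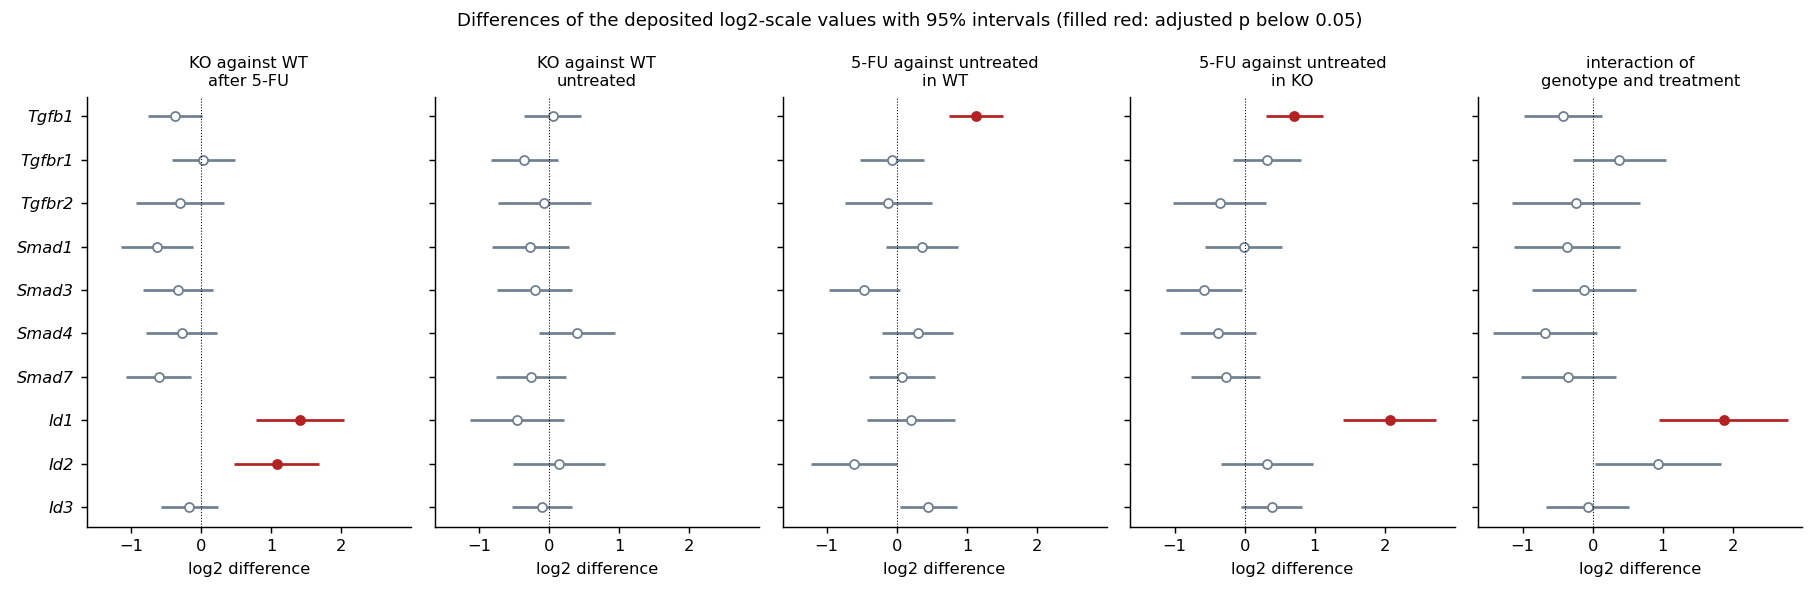
Log2 differences on the deposited scale (horizontal) with 95% intervals for the 10 members (rows), one panel per comparison; filled points passed an adjusted p of 0.05. Passing are Id1 (1.41) and Id2 (1.08) in KO against WT after 5-FU, Tgfb1 (1.13) in WT after 5-FU, Id1 (2.07) and Tgfb1 (0.71) in KO after 5-FU, and the Id1 interaction (1.87).

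Per kilobase of annotated exon, the order of levels within a library group can be compared between genes. In 5-FU KO cells Id1 led with 1041 ± 138 normalized counts per kilobase, followed by Id2 with 205 ± 122 and Smad4 with 116 ± 20.5 (SD, n = 3). The Id1 range, 884 to 1143, lay above every other member, whereas the ranges of Id2 and Smad4 overlapped. Smad7 was last with 2.26 ± 0.928, below Id3 with 21.7 ± 7.37, and these ranges did not overlap.

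In 5-FU WT cells Id1 was first with 225 ± 34.6 normalized counts per kilobase, its range overlapping that of Smad4 with 164 ± 71.5 (SD, n = 4). Id2 was ninth there with 36.0 ± 12.5, next to Id3 with 36.7 ± 17.3, and Smad7 was last with 21.6 ± 16.6. Tgfb1 was sixth with 59.5 ± 12.4 in 5-FU WT, and in untreated WT it was last with 5.34 ± 0.685 (SD, n = 3). In untreated KO cells Smad4, with 180 ± 59.3, and Smad3, with 143 ± 48.6, headed the order, and in untreated WT Id1, with 191 ± 130, and Smad3, with 176 ± 73.5, did. Neighbours at the top of the untreated orders did not differ beyond their spread.

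The rest of the pathway was taken from a list of 81 genes of ligands, receptors, SMADs, regulators, targets and Id partners, of which 62 were in the table and 61 were tested. After 5-FU, 7 of 61 differed between KO and WT, 2 higher and 5 lower, which is 11.5% against the 10.9% of all genes, and the median log2 difference was -0.02. Fkbp1a, whose protein binds the resting type I receptor, was 2.67-fold higher in KO, at 7742 ± 1580 normalized counts (SD, n = 3) against 2904 ± 1058 in WT (SD, n = 4), a log2 difference of 1.34 (limma adjusted p = 0.00203). Strap, a receptor-associated protein, was 1.63-fold higher (log2 difference 0.64, adjusted p = 0.0155).

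Among those lower in KO after 5-FU, Gdf3, a TGF-beta family ligand, was at 685 ± 135 normalized counts in KO against 1953 ± 328 in WT (log2 difference -1.15, limma adjusted p = 0.00154). Skil, which encodes the SMAD corepressor SnoN and is itself a target of TGF-beta, was at 94.8 ± 47.6 in KO against 514 ± 349 in WT (-1.06, adjusted p = 0.0339). Junb, an AP-1 gene and early target, was at 184 ± 103 in KO against 615 ± 17.3 in WT (-0.98, adjusted p = 0.0125). The other two, Hipk2 and Tsc22d1, are outside the naming rule, and had log2 differences of -0.85 (adjusted p = 0.0250) and -0.84 (adjusted p = 0.0114). Smad6, the second inhibitory SMAD, named here beside Smad7 after its values were seen, was at 26.9 ± 16.1 in KO against 83.7 ± 60.0 in WT and did not pass (adjusted p = 0.328).

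Without treatment, limma and limma-voom each called 0 of 61 between KO and WT, and 6 had an unadjusted p below 0.05. The 3 with the smallest p were Ski, the corepressor related to Skil, at 346 ± 178 normalized counts in KO against 914 ± 239 in WT (limma adjusted p = 0.282), the ligand gene Bmp4 at 75.8 ± 49.0 against 18.3 ± 30.8 (adjusted p = 0.361), and the receptor gene Acvr1 at 29.5 ± 51.1 against 84.0 ± 20.6 (adjusted p = 0.376). None of these passed.

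In WT cells after 5-FU, 4 of 61 passed, 1 higher and 3 lower, which is 6.56% against the 6.68% of all genes. The kinase gene Hipk2 was 3.05-fold higher, at 387 ± 62.7 normalized counts after 5-FU against 127 ± 91.8 without treatment (log2 difference 0.79, limma adjusted p = 0.0486). The receptor genes Acvr2a, at 51.4 ± 58.6 against 307 ± 68.4, and Acvr1, at 5.64 ± 4.63 against 84.0 ± 20.6, fell, with adjusted p of 0.0268 and 0.0456. Tgif1, a SMAD corepressor, fell to 342 ± 62.3 after 5-FU, against 1060 ± 664 without treatment (adjusted p = 0.0298). With the A3 and D4 pair averaged, limma called 0 of these 61 genes in WT after 5-FU, against 4 with the libraries kept separate.

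In KO cells after 5-FU, 4 of 61 passed again, 1 higher and 3 lower, the same share of 6.56% against 5.92% of all genes. Tab2, an adaptor of the kinase TAK1, was at 1912 ± 355 normalized counts after 5-FU against 714.5 ± 188 without treatment (log2 difference 1.09, limma adjusted p = 0.0240). Tgif1, lower in both genotypes, was at 177 ± 32.5 after 5-FU against 937 ± 78.4 without treatment (-1.39, adjusted p = 0.00538). Eng, the coreceptor endoglin, was at 962 ± 352.5 against 2539 ± 385 (-1.16, adjusted p = 0.00868), and the target Tsc22d1 at 3997 ± 1084 against 9326 ± 583 (-1.17, adjusted p = 0.00343).

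For the interaction, limma and limma-voom each called 0 of 61, with 11 below an unadjusted p of 0.05, the smallest adjusted p being 0.0594 for Eng (log2 -1.21), 0.0863 for Tsc22d1 (-0.96) and 0.101 for Gdf3 (-0.96). The median log2 difference over the 61 genes was -0.05 without treatment, -0.10 in WT after 5-FU and -0.05 in KO after 5-FU, against 0.00, -0.00 and -0.01 over all genes.

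**Figure D5:**
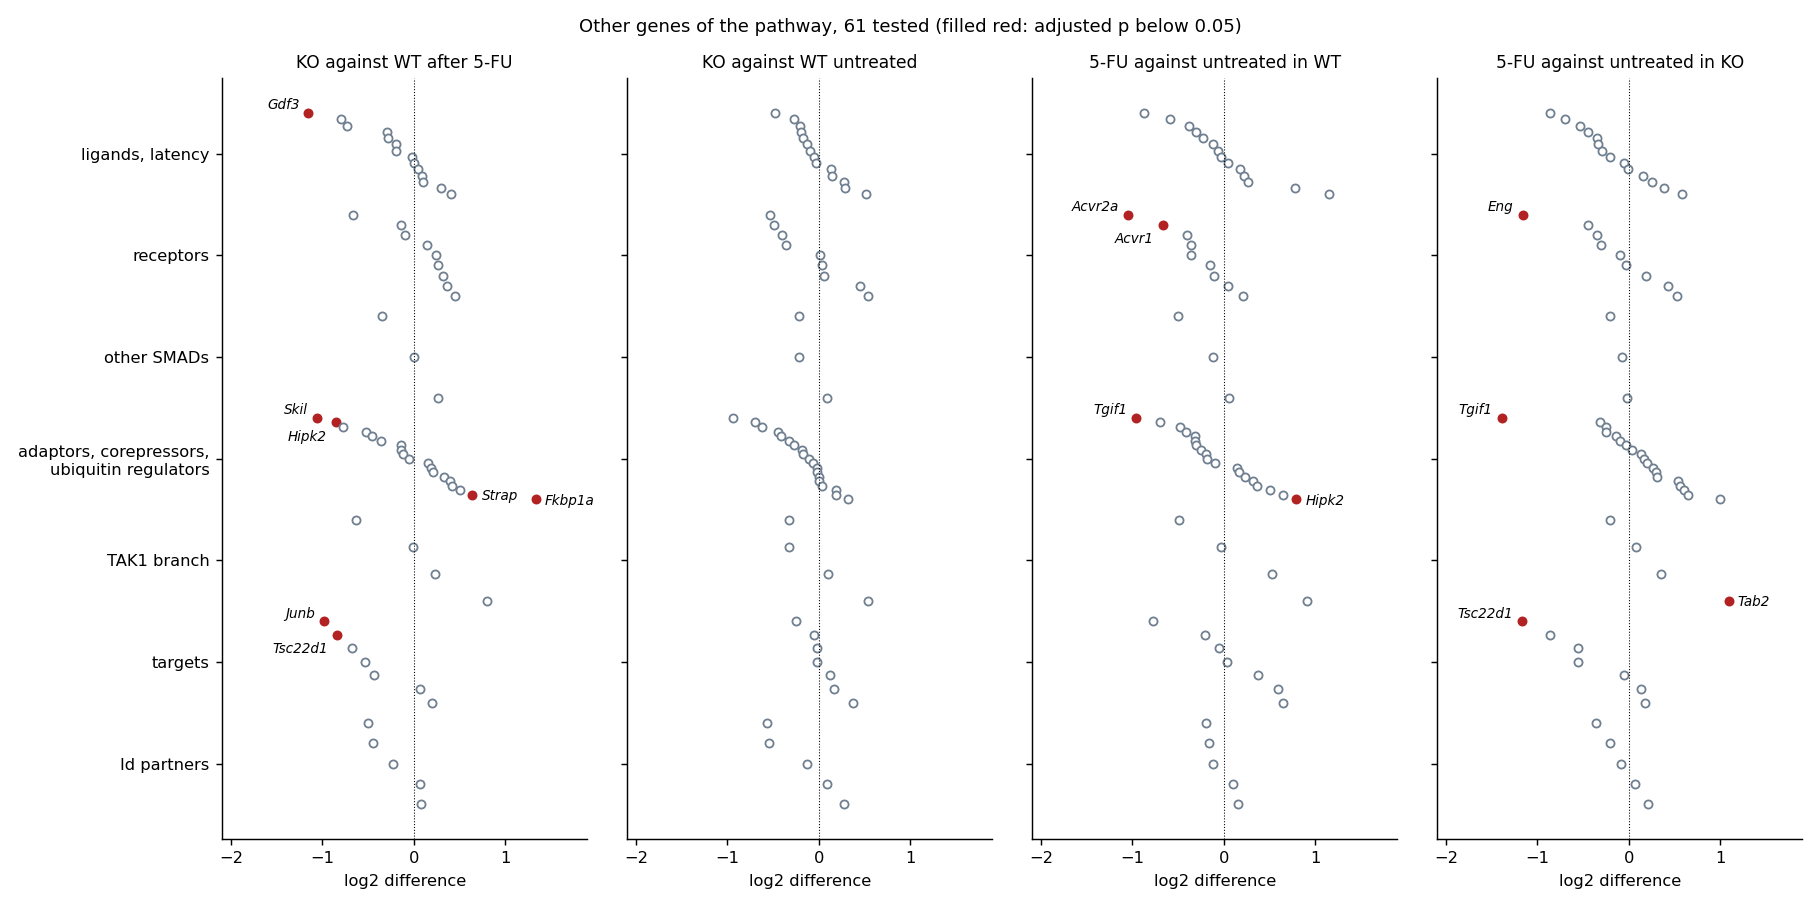
Log2 difference on the deposited scale (horizontal) of 61 other pathway genes, grouped by role (rows), in 4 comparisons; filled red points with names passed an adjusted p of 0.05. There were 7, 0, 4 and 4 such genes from left to right.

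Genes whose deposited values were most like those of Tgfb1 over the 13 libraries, among all tested genes, were Gm8258 (Pearson r = 0.950), the ribosomal protein gene Rpl11 (r = 0.944) and the adaptor gene Fyb (r = 0.931). Fyb averaged 1255 ± 232 normalized counts in 5-FU KO, 2386 ± 459.9 in 5-FU WT, 781 ± 31.8 in untreated KO and 667 ± 123 in untreated WT. For Id1 they were Phf5a (r = 0.906), Timm9 (r = 0.899) and Dhps (r = 0.882). Phf5a averaged 3750.1 ± 228 in 5-FU KO, 2446 ± 317 in 5-FU WT, 2289 ± 227 in untreated KO and 2436 ± 195 in untreated WT. These correlations describe 13 libraries that share the group structure and the 5-FU handling.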

How the data were processed

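Polyadenylated RNA from 100 sorted HSCs per library was sequenced after Smart-seq2, per the labels' protocols. The authors deposited log2-scale, variance-stabilized values for 13 libraries. The submitters' processing notes name Trimmomatic, Bowtie 1.1.1, DESeq2 and the mm10 genome, and the sources used here give no counting tool, annotation or strand setting. Smart-seq2 does not mark strand.

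The transformation was inverted to give reads and normalized counts (reads divided by the library's size factor). In all 13 libraries 100% of the recovered reads were whole numbers within 0.1, after solving a value of 7.65 at zero and an added constant of 1 per read count, or 2 in untreated WT D1. Symbols and positions come from GENCODE M21 (GRCm38), which matched 13054 identifiers and left 147 without a symbol. No member shared exon bases with another gene.

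Differences were tested with limma 3.58.1 in R 4.3.3 on the deposited log2 values, with a mean per group over all 13 libraries and eBayes with a trend; the residual df were 9 and the prior df 7.67. Benjamini-Hochberg adjustment was over the 12846 genes tested, and a gene was called at an adjusted p below 0.05. A fold is the ratio of mean normalized counts. The filter had been designed for an unlogged value and was applied to the recovered normalized counts. On simulated counts for 12846 genes with 200 changed, KO against WT after 5-FU recovered 17% of 2-fold and 49% of 4-fold changes, with 1 false call among 67. The changed genes were drawn only from those above a minimum mean count.

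The members and gene lists were chosen with earlier results of these data known. All 10 members are named. Of the other pathway genes, up to 3 per direction and comparison are named, those called with the largest differences, or the 3 with the smallest p where none was called. The genes of like pattern are the 3 with the highest correlation for the 2 members with the smallest adjusted p.

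Alternatives were other filters, scales, scalings (TMM on the log2(normalized count + 1) scale, quantile), limma-voom on the recovered counts, fits on the compared groups, an acquisition date term, averaging 5-FU WT A3 and D4, and leaving out each library. A fit without 5-FU WT D4 and untreated WT D1, which keeps 1 flowcell, was chosen after seeing the data. The interval of each log2 difference is at 95%.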

Additional observations from a re-analysis of the deposited data

Results flagged for a closer look

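The Id1 response to 5-FU differed between KO and WT cells by the interaction term of limma, at 1.87 on the log2 scale. Id1 in 5-FU KO libraries was at 1025 to 1326 normalized counts against 0.818 to 198 in untreated KO libraries, and in 5-FU WT libraries at 226 to 311 against 51.6 to 338 in untreated WT libraries. The call was lost in 14 of 23 alternatives, with adjusted p of 0.0122 to 0.216 and log2 values of 1.48 to 4.40 over all of them. The untreated KO value of 0.818 is 1 read in D5, and without that library the interaction was 1.48. The summed division genes were at 46106 to 47034 in 5-FU KO and 23718 to 28958 in 5-FU WT libraries. Without treatment they were at 27786 to 32955 in KO and 16119 to 25344 in WT libraries. For the interaction, limma called 0 of the 8 division genes, against 2.84% of all genes, with a median log2 difference of 0.28. Their part in the Id1 values was not tested.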

How the results depend on the processing

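Between KO and WT after 5-FU the count of called members was 2 and became 1 with log2(normalized count + 1), log2(normalized count + 5) or TMM scaling, which left Id2, and with limma-voom, the date term, the averaged pair or 1 flowcell, which left Id1. Leaving out single libraries gave 1 to 2. Without treatment the count was 0 under all alternatives. In WT after 5-FU it was 1, but 0 with the date term, and 1 to 2 without single libraries. In KO after 5-FU it was 2, but 1 with limma-voom, the averaged pair or 1 flowcell, and 0 with the date term, and 1 to 2 without single libraries. The interaction count of 1 became 0 with either logarithm, TMM scaling, limma-voom, the date term or the averaged pair, and was 0 to 1 without single libraries. The higher or lower direction of the 6 called results held in all 143 alternatives, of which 39 lost the call. The cause was not tested, except that the date term rests on 5-FU WT D4 alone and the averaged pair and 1 flowcell leave fewer libraries. Under the alternatives other than omissions of single libraries, adjusted p reached 0.235 for Id1 and 0.603 for Tgfb1 in KO after 5-FU, and 0.0562 for Tgfb1 in WT, all with the date term.

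Of 1047 alternatives of uncalled results, 44 changed sign, in 15 results. With 1 flowcell, the log2 differences that changed sign were, between untreated KO and WT, Id3 0.11, Smad1 0.0073, Smad3 0.034 and Tgfbr2 0.18, and in WT after 5-FU, Id1 -0.088, Tgfbr1 0.065 and Tgfbr2 0.033. With the date term, Smad7 was -0.19 and Tgfbr2 0.14 in WT, and Smad1 was 0.21 in KO. With limma-voom, Smad7 was -0.29 in WT, Smad1 0.041 in KO and the Id3 interaction 1.05. With quantile normalization, Smad1 was 0.059 in KO and the Smad3 interaction 0.0023. The Id3 interaction was 0.25 with log2(normalized count + 1) and 0.29 with TMM scaling. Leaving out single libraries, signs changed within these log2 ranges: after 5-FU between KO and WT, Tgfbr1 -0.13 to 0.13. Between untreated KO and WT the ranges were Id2 -0.15 to 0.35, Id3 -0.25 to 0.11, Smad1 -0.43 to 0.0073, Smad3 -0.39 to 0.034, Tgfb1 -0.026 to 0.12, Tgfbr2 -0.32 to 0.18. In WT after 5-FU they were Id1 -0.12 to 0.40, Smad7 -0.084 to 0.24, Tgfbr1 -0.21 to 0.073, Tgfbr2 -0.38 to 0.12, and in KO Smad1 -0.15 to 0.12. For the interaction they were Id3 -0.27 to 0.083, Smad3 -0.36 to 0.095, Tgfbr2 -0.48 to 0.018.

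Over all genes, calls between KO and WT after 5-FU numbered 1395, against 694 to 1606 without single libraries, 881 with the date term and 913 with the averaged pair. Untreated calls numbered 4, against 0 to 25 under the alternatives. Calls after 5-FU in WT numbered 858, against 219 with the date term, 415 with only the groups compared, 510 with the averaged pair and 534 with 1 flowcell, and in KO 761, against 7 with the date term and 452 with limma-voom. Interaction calls numbered 365, against 149 with 1 flowcell, 199 with the date term and 237 with the averaged pair. Without single libraries these 3 counts were 464 to 990, 356 to 979 and 140 to 476. Of the 61 other pathway genes, calls after 5-FU between KO and WT numbered 7, against 4 with limma-voom and 2 to 9 without single libraries. In WT after 5-FU they numbered 4, against 0 with the averaged pair, 1 with the date term, TMM scaling, log2(normalized count + 1) or only the groups compared, 2 with log2(normalized count + 5) or 1 flowcell, and 0 to 6 without single libraries. In KO they numbered 4, against 2 with limma-voom, 0 with the date term and 2 to 5 without single libraries, and for the interaction 0, against 0 to 2. No alternative moved the median of all genes by more than 0.1. No paired analysis was possible because the groups compared share fewer than 2 replicate numbers.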
